A study of Rattus norvegicus with 2 samples.

Results

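The genes described here are 8 members of the integrated stress response: the transcription factor Atf4 and 7 genes of the programme it drives, Ddit3, Atf3, Chac1, Trib3, Asns, Sesn2 and Ddit4. They were picked by symbol, with earlier results of these data known, from 28116 gene symbols in the deposited matrices, and each was matched by its symbol. Their levels in these 2 libraries were in view when they were picked, so those levels are given as a description. Their raw UMI counts (a UMI, or unique molecular identifier, tags 1 captured transcript) were read in every barcode with at least 500 detected genes and at most 20% mitochondrially encoded UMIs. The cells came from the colon of WT rat fetuses at E19.5 (embryonic day), in 1 library of the maternal obesity group and 1 library of the control group. The labels give no strain, fetal sex, number of fetuses per library or means by which the mothers became obese. Both suspensions were made by enzyme digestion at 37 °C followed by a step that lyses red cells. With 1 library per group there is no replicate check, so the values below compare 2 libraries, carry no p-value, and have 95% intervals that cover counting error only.

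The integrated stress response begins when a stress-sensing kinase phosphorylates the translation factor eIF2. General protein synthesis then slows while the Atf4 messenger is translated more, and ATF4 protein turns on genes for amino acid supply, redox balance, brakes on growth signalling and, where stress lasts, cell death. ATF4 is controlled to a large extent at translation, so its mRNA level is not a measure of its protein. In the gut the pathway is known from the secretory and absorptive epithelium, where protein folding load and nutrient supply vary.

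Promoter sequence is shown for Chac1 and Trib3, the 2 members whose start region held a match to the element bound by ATF4 with a C/EBP partner. RefSeq sequence (build GRCr8) was found for 7 of the 8 genes, all but Atf3, and the 250 bases before each start were searched on both strands for TGATGNAA, its variant TGACGNAA, the cAMP response element TGACGTCA and the endoplasmic reticulum stress element. These motifs occur in 3.40%, 1.75%, 1.59% and 0.0657% of 33469 rat promoters of the same length. Capitals mark the matches, lower case the flanking bases, and each sequence reads 5′ to 3′ along the gene's own strand.
Chac1, chr3:126795887-126795991, plus strand: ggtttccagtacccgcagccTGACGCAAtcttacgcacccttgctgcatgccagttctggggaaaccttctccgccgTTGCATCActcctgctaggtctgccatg
Trib3, chr3:161275534-161275574, minus strand: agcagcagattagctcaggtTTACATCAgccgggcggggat
The Chac1 window held TGACGCAA in the direction of the gene, 224 to 217 bases before its start, and TTGCATCA, which is TGATGCAA on the opposite strand, 167 to 160 bases before it. In Trib3 the match TTACATCA, TGATGTAA on the opposite strand, lay 21 to 14 bases before the start. Atf4, Ddit3, Asns, Sesn2 and Ddit4 had none of these letters in the window searched, which does not bear on elements elsewhere in those genes.

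The maternal obesity library held 120811946 UMIs in 9714 barcodes and the control library 103013814 UMIs in 8903 barcodes. The limits kept 7236 and 6879 barcodes, and removal of called doublets left 7102 maternal obesity and 6819 control cells, with medians of 9984 and 9848 UMIs. The caller marked 1.85% and 0.872% of cells where 7.77% and 7.12% were expected at these cell numbers, so doublets may remain. Between the libraries, 130 barcode sequences were shared. Cells were grouped without the 8 genes and without the stress gene lists into 32 clusters. Marker genes gave names to 12 classes, and 8 clusters stayed unnamed. Those names are rebuilt and mean cells like that type. Haemoglobin genes took 10.0% of the analysed UMIs in maternal obesity and 3.49% in control, and the median mitochondrial share was higher in maternal obesity in 12 of 12 classes (2.77% and 2.23% over all cells). The 13 medians of the 8 genes (all cells and 12 classes) were each set against a range. It runs from the median lower to the median upper bound of the single genes' counting intervals. Such a range is not an interval of the median itself. With a 10% mitochondrial limit all 13 medians stayed within their range. Outside haemoglobin and mitochondrial genes 11 of 13 did, with erythroid-like cells and all cells the exceptions.

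Across all cells, 7 of the 8 genes had a lower level in maternal obesity than in control and Asns a higher one. Levels are given as CPM, UMIs of the gene scaled to 1000000 UMIs of the same cells. Chac1, an enzyme that degrades glutathione, stood at 34.3 CPM in maternal obesity and 88.7 CPM in control, 2.58-fold lower (95% interval 2.48 to 2.69). Atf3, a stress-induced transcription factor, had 294 CPM in maternal obesity and 655 CPM in control, 2.23-fold lower (2.20 to 2.26). Ddit4 followed with 37.95 and 70.9 CPM and Trib3 with 6.93 and 11.9 CPM. These 4 genes were at least 1.5-fold lower, a mark that 8.70% of 16070 measured genes also passed, and none of the 8 was 1.5-fold higher, which 20.8% of all genes were. On the log2 scale the ratio of the libraries, maternal obesity divided by control, had a median of -0.64 for the 8 genes and 0.09 for all measured genes. The smaller differences were those of Atf4 (439 CPM in maternal obesity, 620 CPM in control), Ddit3 (57.3 and 75.2 CPM), Sesn2 (34.7 and 44.7 CPM) and Asns (33.2 and 27.3 CPM). Epithelial cells made up 18.4% of maternal obesity and 37.1% of control cells, so these pooled values also carry the class makeup, and the values within classes follow.

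**Figure D1:**
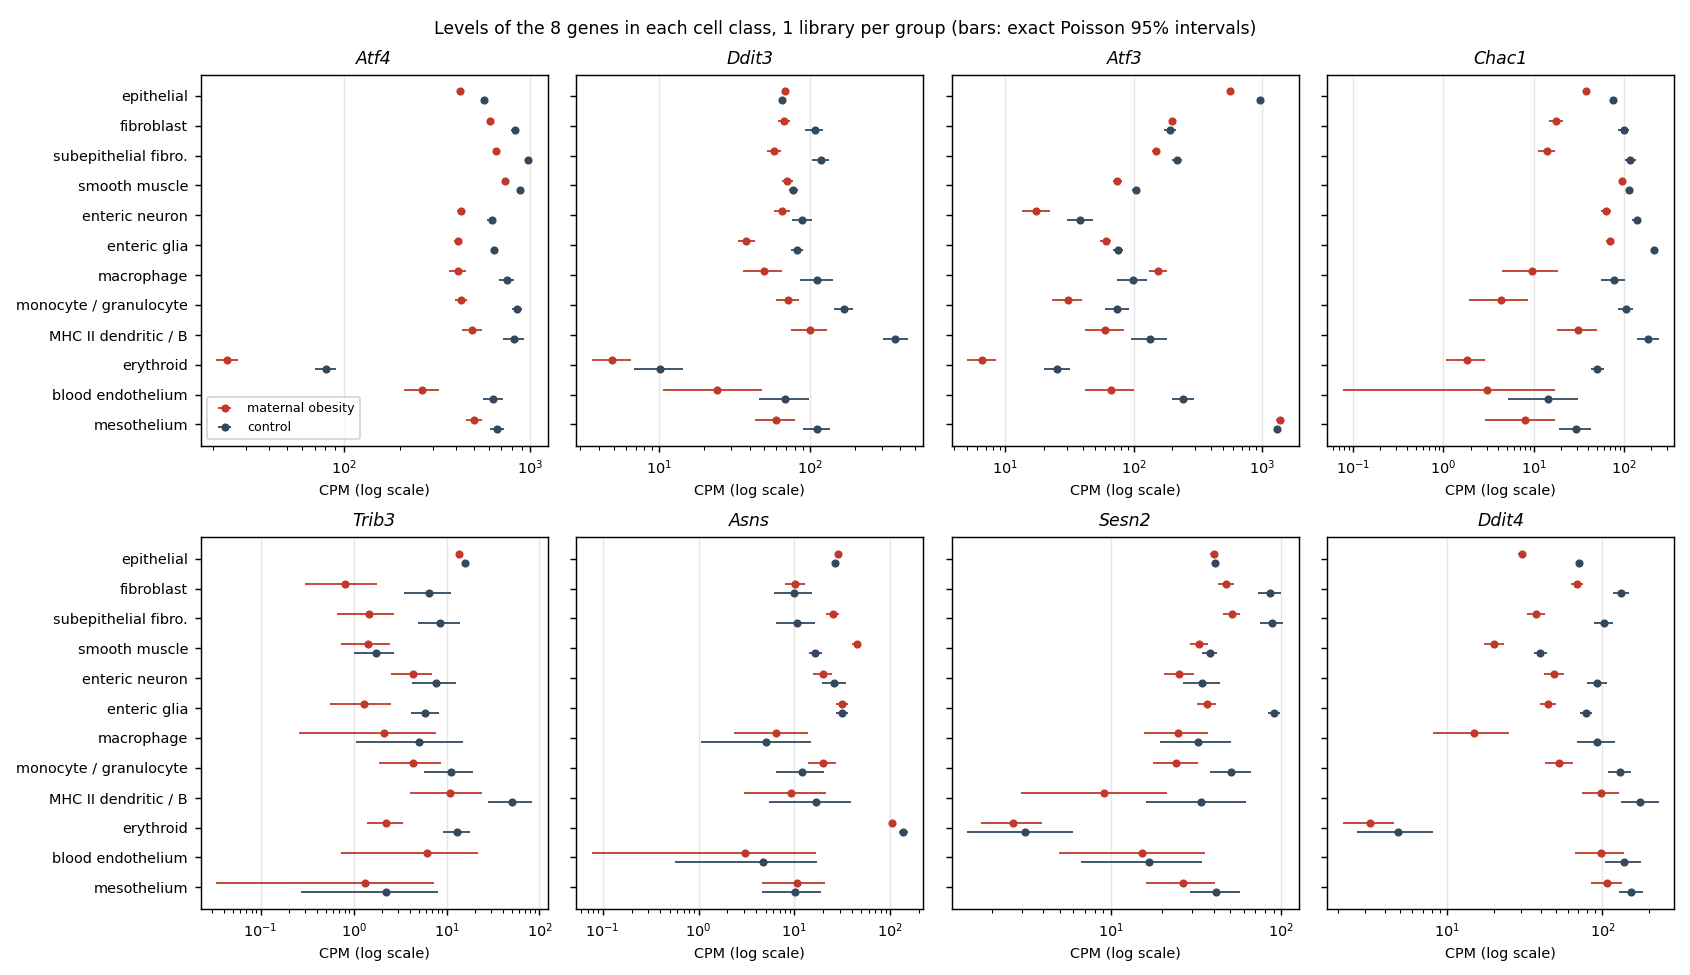
Level of each gene in CPM (log axis) in 12 marker-named classes, with the maternal obesity library in red above the control library in dark blue and bars for exact Poisson 95% intervals; a count of 0 (Trib3 in control blood endothelium) is not drawn. Maternal obesity lies left of control for Chac1 in every class, with 1 and 6 UMIs in blood endothelium. Asns lies to the right of control in smooth muscle and subepithelial fibroblasts, and the Atf3 pairs nearly coincide in mesothelium and fibroblasts.

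Atf4 itself had a lower level in maternal obesity in 12 of 12 classes, and in 6 of them by at least 1.5-fold. Its log2 ratio lay between -1.75 in erythroid-like cells and -0.27 in smooth muscle-like cells. Outside haemoglobin and mitochondrial genes the erythroid ratio was -1.17 (224 CPM in maternal obesity, 503 CPM in control), and blood endothelium had the lowest, -1.25. Among classes, control levels were highest in subepithelial fibroblasts (658 CPM in maternal obesity, 979 CPM in control) and smooth muscle (730 and 880 CPM), and lowest in erythroid-like cells (23.8 and 80.2 CPM). Most cells carried the transcript: after each cell was thinned to 3000 UMIs, 66.9% of maternal obesity and 78.0% of control cells had an Atf4 UMI, against 83.4% and 89.2% without thinning. Thinning left out 737 maternal obesity and 1027 control cells with fewer UMIs. The 6 classes past 1.5-fold were enteric glia (408 and 636 CPM), the macrophage-like cluster (408 and 748 CPM), monocytes and granulocytes (425 and 853 CPM), the dendritic and B cell class (489 and 817 CPM), blood endothelium (262 and 633 CPM) and the erythroid-like cells.

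Ddit3 encodes CHOP, the transcription factor that links a lasting stress response to cell death. Its lowest ratio was in the class named from the MHC class II dendritic and B cell marker list. That class had 100.3 CPM in maternal obesity and 370 CPM in control (3.69-fold lower, 2.65 to 5.197), the highest control level among the 12 classes. Cells of that class were few, with 75 in maternal obesity and 43 in control, and were led by immunoglobulin genes such as Jchain. A separate cluster led by MHC class II genes and Cd74 stayed unnamed, so the class does not stand for all MHC class II cells. Monocytes and granulocytes had 71.9 and 168 CPM (2.34-fold lower, 1.86 to 2.95). Enteric glia had 37.9 and 82.4 CPM (2.18-fold lower, 1.86 to 2.55). The epithelium had 68.0 CPM in maternal obesity and 65.9 CPM in control and an interval for the ratio of 0.982 to 1.08. Ddit3 was thus lower in 11 of 12 classes, by at least 1.5-fold in 9. The 9 include erythroid-like cells (46 and 29 UMIs). Outside haemoglobin and mitochondrial genes these cells had 45.9 CPM in maternal obesity and 63.5 CPM in control, under 1.5-fold apart.

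Atf3 levels differed widely between cell types. The gene stood at 1380 CPM in maternal obesity and 1310 CPM in control in mesothelium-like cells, the lining of the gut's outer surface, and at 569 and 974 CPM in epithelial cells. Enteric neurons were the lowest class outside the erythroid-like cells, with 17.5 and 38.2 CPM. Within the epithelium, the goblet-like cluster, whose cells make mucus, had 1090.03 CPM in maternal obesity (42 cells) and 1959 CPM in control (367 cells). In epithelial cells the library difference was 1.71-fold (1.69 to 1.74, lower in maternal obesity), and 54.3% of thinned maternal obesity and 70.6% of thinned control cells had a UMI. Atf3 did not follow the other members everywhere: in the macrophage-like cluster it had 155 CPM in maternal obesity and 98.4 CPM in control (1.58-fold higher, 1.16 to 2.18), and fibroblasts had 199.5 and 193 CPM. The macrophage direction did not hold when called doublets were kept, where the log2 ratio was -0.0187 instead of 0.65. In mesothelium the CPM and the share of thinned cells with a UMI (44.9% in maternal obesity, 71.1% in control) run in opposite directions, so no order is read there. That class also had a median of 8.84% mitochondrial UMIs in maternal obesity and 3.25% in control.

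Chac1 was measured (at least 20 UMIs over both libraries) in 11 of 12 classes and was lower in maternal obesity in all 11, by at least 1.5-fold in 10. In macrophage-like cells it had 9 UMIs (9.65 CPM) in maternal obesity and 45 UMIs (76.4 CPM) in control, 7.91-fold lower (3.82 to 18.4). Monocytes and granulocytes had 8 UMIs (4.39 CPM) and 113 UMIs (104 CPM), 23.7-fold lower (11.6 to 56.3). Subepithelial fibroblasts, the mesenchymal cells just beneath the epithelium, had 14.0 and 117 CPM, 8.38-fold lower (6.51 to 10.9), and the other fibroblasts 17.7 and 98.6 CPM, 5.57-fold lower (4.44 to 7.002).

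The classes richest in Chac1 were not the epithelium. In maternal obesity the order was smooth muscle at 94.6 CPM (88.2 to 101), glia at 69.6 CPM (63.2 to 76.5), neurons at 62.9 CPM (55.3 to 71.3, overlapping glia) and epithelium at 37.8 CPM (35.9 to 39.7). In control, enteric glia led with 213 CPM (201 to 225), with the dendritic and B cell class at 185 CPM (139 to 241) inside a wide interval, then enteric neurons at 138 CPM (122 to 156). Outside haemoglobin and mitochondrial genes the control order began instead with erythroid-like cells, at 317 CPM (268 to 373), with glia at 218 CPM (206 to 230). Subepithelial fibroblasts, smooth muscle, monocytes and granulocytes, and fibroblasts lay from 117 to 98.6 CPM with intervals that overlap from each to the next. Epithelial Chac1 in control was 74.8 CPM (72.5 to 77.2), so the maternal obesity level was 1.98-fold lower (1.87 to 2.101). After thinning, 12.5% of maternal obesity and 31.0% of control glia had a Chac1 UMI, and 6.48% and 14.97% of epithelial cells (25.7% and 35.3% unthinned). Blood endothelium gave a low share in both libraries, with 1 of 94 and 6 of 83 cells holding a UMI, at median depths of 1409 and 1844 UMIs.

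Smooth muscle, with the smallest Chac1 difference of the 11 classes measured (94.6 CPM in maternal obesity, 112 CPM in control), was made of 3 clusters with different ratios. Cluster 5, with Spink8, Actg2 and Pcp4 among its leading genes, had 11 Chac1 UMIs in 234 maternal obesity cells (3.56 CPM) and 255 in 418 control cells (49.3 CPM), 13.8-fold lower (7.61 to 28.1). Cluster 4, led by Egr4, Krt17 and Actc1, had the highest Chac1 level of all 32 clusters, 208 CPM in maternal obesity and 418 CPM in control, 2.01-fold lower (1.78 to 2.27). Cluster 24, with Il17b, Cnn1 and Myh11 among its leading genes, had 95.7 and 86.1 CPM, a ratio of 1.11 with an interval of 0.946 to 1.31. The library with maternal obesity held 217, 234 and 160 cells of clusters 4, 5 and 24 and control 150, 418 and 229, so the pooled class value mixes these levels in different proportions. With equal weight for each cluster the smooth muscle log2 ratio of Chac1 was -1.53, against -0.25 for the pooled cells.

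**Figure D2:**
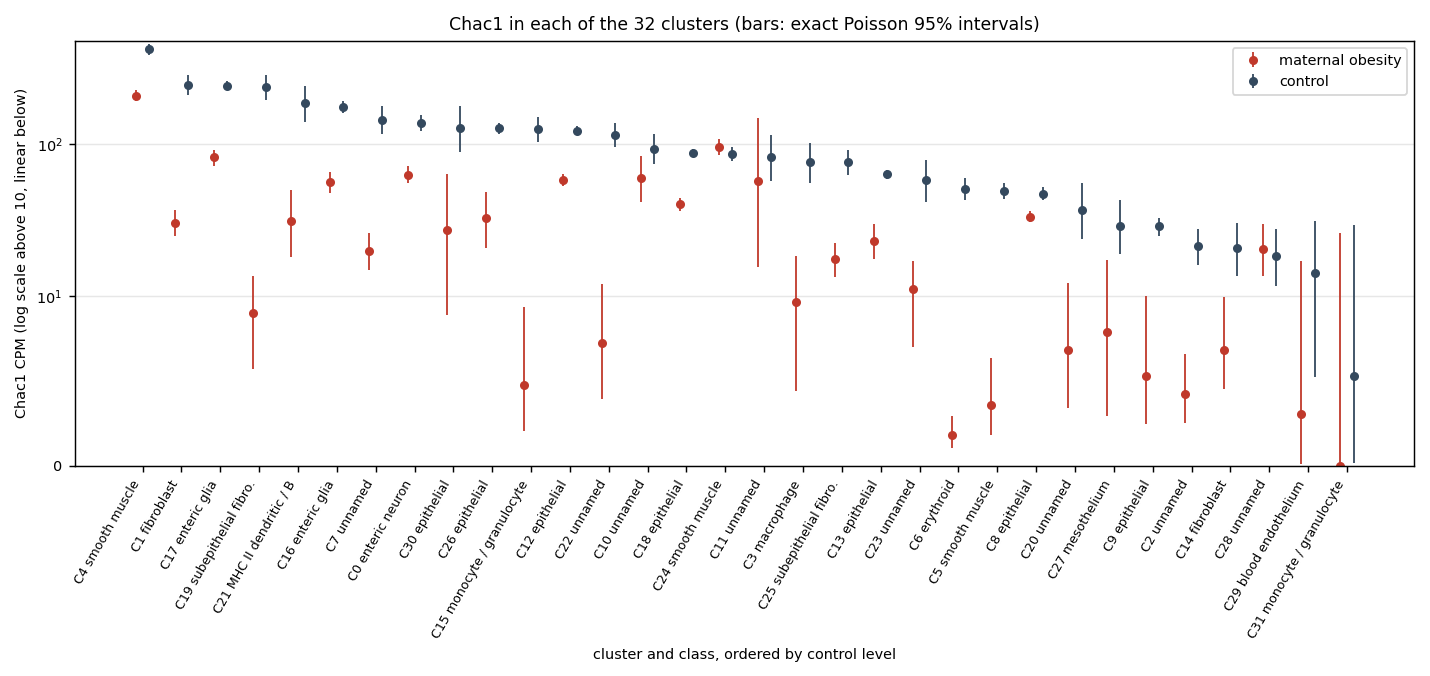
Chac1 in CPM in each of the 32 clusters, ordered by control level, with maternal obesity in red to the left of control in blue and bars for exact Poisson 95% intervals; the axis is logarithmic above 10 CPM and linear below. Cluster 24 of smooth muscle and the unnamed cluster 28 are the clusters where maternal obesity lies above control, by ratios of 1.11 and 1.12 whose intervals include 1.

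By cluster, Chac1 was measured in 30 of 32 and was lower in maternal obesity in 28. Cluster 22, led by MHC class II genes and Cd74 and left unnamed because these outnumbered macrophage markers among its leading genes, had 7.22 CPM in maternal obesity and 115 CPM in control, 15.9-fold lower (9.15 to 29.9). The unnamed cluster 2 had 4.22 and 21.3 CPM. Among clusters with at least 20 UMIs in each library, the lowest ratio was in cluster 19 of the subepithelial fibroblasts, with 23 UMIs (8.997 CPM) in maternal obesity and 114 UMIs (237 CPM) in control.

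Chac1 transcripts sat in a small number of cells. Over all cells, 130 of 7102 maternal obesity cells held 50% of the Chac1 UMIs, and 300 of 6819 control cells did. At least 10 Chac1 UMIs were found in 80 maternal obesity and 208 control cells (1.13% and 3.05%). The highest single cell had 75 UMIs in maternal obesity and 47 in control. For Atf4 the same 50% was spread over 1089 and 1205 cells. In enteric glia, 6 of 525 maternal obesity cells reached 10 Chac1 UMIs, against 33 of 538 control cells. The erythroid-like value rested on very few cells: 1 of 469 maternal obesity cells held 12 of the 17 UMIs there, and 6 of 166 control cells held 50% of 145 UMIs. Without the highest cell of each library, Chac1 was still lower in maternal obesity in the 11 classes measured, and the erythroid log2 ratio was -6.24 in place of -4.77.

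Trib3 is a pseudokinase that ATF4 induces and that in turn damps ATF4 activity. It had 701 UMIs in maternal obesity and 1090 in control over all cells, and 557 and 859 of these came from the epithelium. Epithelial levels were 13.7 CPM in maternal obesity and 15.8 CPM in control (1.15-fold lower, 1.03 to 1.28). That epithelial direction did not hold throughout: the log2 ratio of -0.20 was 0.66 with ComBat adjustment before clustering and -1.08 with equal weight for each cluster. Outside the epithelium the ratios were wider: glia had 8 UMIs (1.29 CPM) in maternal obesity and 36 UMIs (5.92 CPM) in control, 4.59-fold lower (2.099 to 11.4), and subepithelial fibroblasts 9 and 16 UMIs (1.45 and 8.52 CPM), 5.89-fold lower (2.45 to 15.1). Trib3 was measured in 8 classes and lower in maternal obesity in 8, with an interval clear of 1 in 5. Epithelial clusters differed: the defensin-led cluster 12 had 11.8 CPM in maternal obesity and 35.6 CPM in control, and cluster 18, led by Tdh, Afp and Ttr, 25.7 and 21.9 CPM.

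Asns makes asparagine from aspartate and is the classic amino acid supply target of ATF4. In several classes it ran against the other members. Smooth muscle had 44.5 CPM in maternal obesity and 16.5 CPM in control, 2.69-fold higher (2.24 to 3.24). Subepithelial fibroblasts had 157 UMIs (25.2 CPM) in maternal obesity and 20 UMIs (10.6 CPM) in control, 2.37-fold higher (1.48 to 3.99). Genes at least 1.5-fold higher made up 16.0% of all measured genes in that class. All 3 smooth muscle clusters had the higher value in maternal obesity: 46.0 and 21.5 CPM in cluster 4, 21.7 and 12.4 CPM in cluster 5, and 67.0 and 20.3 CPM in cluster 24. Glia had 31.4 and 31.2 CPM, a ratio of 1.01 with an interval of 0.819 to 1.24, and fibroblasts 10.2 and 9.96 CPM, a ratio of 1.03 with an interval of 0.620 to 1.77. Of 8 classes measured, Asns was higher in 6, by at least 1.5-fold in 3, and the third of these, monocytes and granulocytes (36 and 13 UMIs, in a class where 12.2% of all genes were that much higher), turned round under other processing.

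The class with most Asns was the erythroid-like one, with 103 CPM in maternal obesity and 137 CPM in control. Haemoglobin took 89.1% of UMIs in these cells in maternal obesity and 83.8% in control, and the median log2 ratio of all genes measured in the class was -1.03. Computed outside haemoglobin and mitochondrial genes, Asns stood at 969 CPM in maternal obesity and 862 CPM in control. After thinning, 23.2% and 26.2% of erythroid-like cells had an Asns UMI, against 8.04% and 7.94% of epithelial cells.

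Sesn2 and Ddit4 both restrain the growth kinase complex mTORC1, Sesn2 as a leucine sensor and Ddit4 through the TSC complex. Ddit4 was lower in maternal obesity in 12 of 12 classes, by at least 1.5-fold in 10. The 10 include erythroid-like cells (3.19 CPM in maternal obesity, 4.88 CPM in control). Outside haemoglobin and mitochondrial genes these cells had 29.96 CPM in maternal obesity and 30.64 CPM in control, under 1.5-fold apart. Epithelial cells had 30.3 CPM in maternal obesity and 70.3 CPM in control (2.31-fold lower, 2.17 to 2.47). Smooth muscle had 20.1 and 39.9 CPM (1.98-fold lower, 1.65 to 2.38), and subepithelial fibroblasts 37.5 and 102 CPM (2.72-fold lower, 2.23 to 3.30). Mesothelium had 107 and 153 CPM (1.43-fold lower, 1.08 to 1.91). Sesn2 was lower in 10 of 10 classes measured, but by at least 1.5-fold in 5 and with an interval clear of 1 in 4. Its direction turned in mesothelium with equal weight for each cell (log2 ratio 0.45), in erythroid-like cells outside haemoglobin and mitochondrial genes (0.29) and in epithelium with ComBat adjustment (0.15) or equal weight for each cell (0.01). Glia had 36.4 CPM in maternal obesity and 90.4 CPM in control (2.48-fold lower, 2.12 to 2.91), while epithelial cells had 40.1 and 40.6 CPM.

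Set side by side, the classes differed in which members carried the library difference. In epithelial cells (1306 in maternal obesity, 2527 in control) 3 of 8 genes were at least 1.5-fold lower, Ddit4, Chac1 and Atf3, where 11.3% of all measured genes were. In enteric glia 6 of 8 were, all but Atf3 and Asns, against 4.10% of all genes. Monocytes and granulocytes had 7 of 8 lower against 15.1%, and the dendritic and B cell class 6 of 6 measured against 18.0%. The counts were 4 of 7 in fibroblasts (7.06%), 5 of 8 in subepithelial fibroblasts (7.12%), 4 of 8 in neurons (5.38%), 4 of 6 in the macrophage-like cluster (7.66%, with Atf3 higher where 1244 of 6372 genes were), 3 of 4 in blood endothelium (11.2%) and 3 of 6 in mesothelium (9.53%). Smooth muscle had 1 of 8 lower, Ddit4, and 1 higher, Asns, where 5.48% of all genes were lower and 17.9% higher. That count is for pooled cells, and with equal weight for each cluster the Chac1 log2 ratio there was -1.53, past 1.5-fold. In erythroid-like cells 6 of 8 were lower, but so were 71.5% of all genes there.

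**Figure D3:**
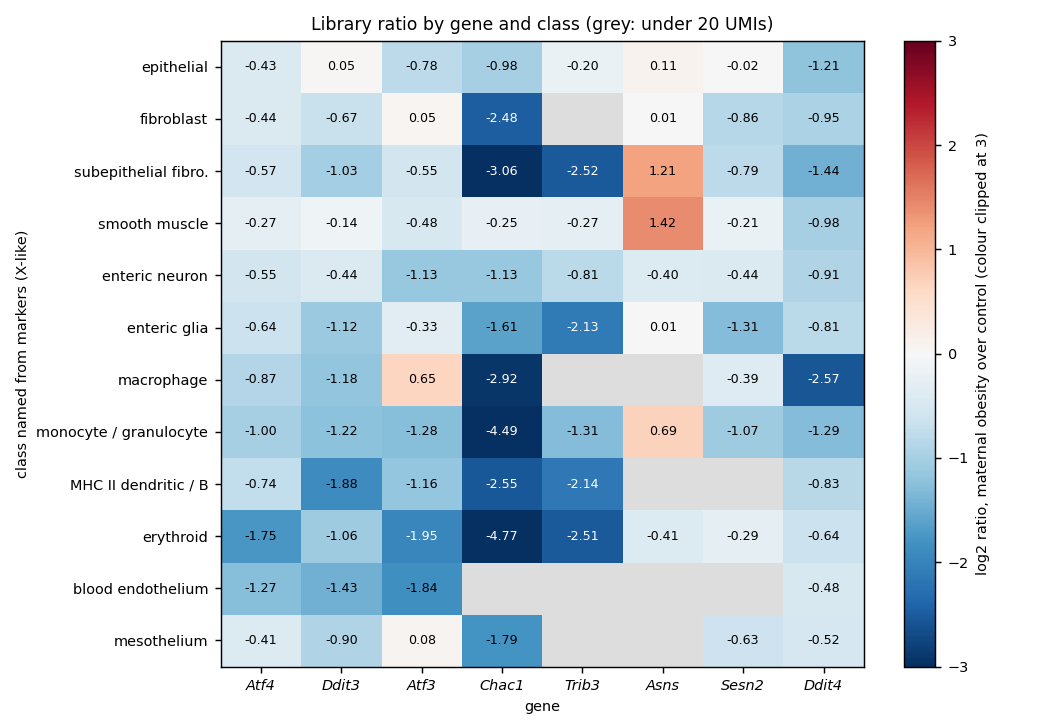
Log2 ratio (maternal obesity / control) of each gene (columns) in each marker-named class (rows), blue where lower and red where higher in maternal obesity, with grey cells for genes under 20 UMIs. The Chac1 column is blue in all 11 measured classes, from -4.77 to -0.25, while the Asns column holds the 2 strongest red cells, 1.42 in smooth muscle and 1.21 in subepithelial fibroblasts.

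The epithelial clusters that filled the class differed between libraries, and some values depended on them. In maternal obesity 536 of 1306 epithelial cells were in cluster 8, led by Sst, Otc and Ccl25, and 366 in cluster 18. In control 528 of 2527 were in cluster 13, led by Muc4 and B3gnt3 among others, 503 in cluster 18 and 497 in cluster 9. Chac1 was lower in maternal obesity in each: 33.2 and 47.2 CPM in cluster 8, 40.0 and 87.1 CPM in cluster 18, 23.0 and 63.3 CPM in cluster 13, and 5.31 and 28.7 CPM in cluster 9. Ddit3 was less uniform, with 72.6 CPM in maternal obesity and 60.8 CPM in control in cluster 8 but 45.7 and 58.7 CPM in cluster 13.

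The number of members found in each single cell was also counted. Of cells thinned to 3000 UMIs, 13.8% of 6365 in maternal obesity and 29.2% of 5792 in control had UMIs of at least 3 of the 8 genes (45.3% and 59.0% unthinned). The share was lower in maternal obesity in 12 of 12 classes, with intervals that do not overlap in 7. Such a share falls when the single genes fall, so it restates the levels given above. The share expected from each gene's separate detection was not computed. Control mesothelium had the highest share, 16.3% of 49 cells in maternal obesity and 47.4% of 76 in control. Glia had 10.5% and 31.7%, and epithelial cells 24.0% and 35.2%. Erythroid-like cells gave the low end, 0.640% and 4.27%.

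**Figure D4:**
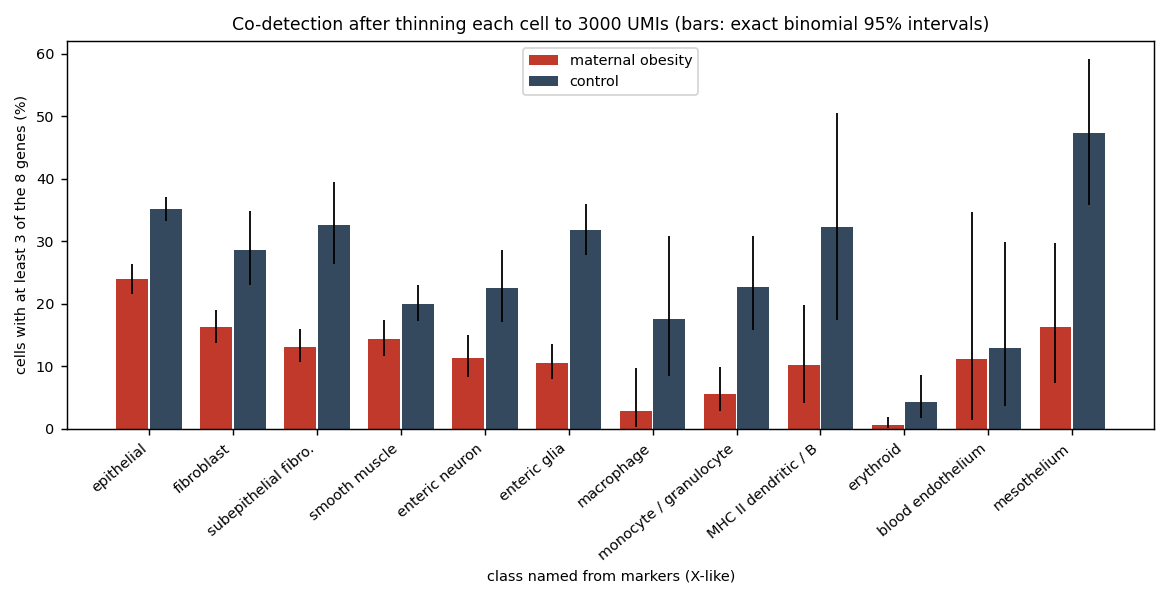
Share of cells with UMIs of at least 3 of the 8 genes after thinning to 3000 UMIs, by class, with maternal obesity bars in red to the left of control bars in blue and lines for exact binomial 95% intervals. In glia 10.5% of maternal obesity and 31.7% of control cells reached 3 genes; blood endothelium rests on 18 and 31 cells.

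Cells with Chac1 also carried more of the other members. In maternal obesity, Ddit3 was found in 32.1% of 340 thinned cells with Chac1 and in 14.3% of 6025 without it, Sesn2 in 18.2% and 8.51%, and Trib3 in 6.47% and 0.880%. In control the same shares were 34.7% of 901 cells and 16.8% of 4891 for Ddit3, 25.6% and 10.2% for Sesn2, and 9.43% and 1.53% for Trib3. Within classes with at least 20 thinned Chac1 cells in a library (11 class and library pairs), Atf4, Ddit3, Atf3, Trib3, Sesn2 and Ddit4 were each more frequent with Chac1 in all 11, and Asns in 9. In control glia, Sesn2 was in 38.9% of 162 Chac1 cells and 15.2% of 361 others. Cells of a library share its preparation, so these shares describe the 2 libraries. The proportion of members also differed between cell types: per 100 Atf3 UMIs, control cells had 2.22 Chac1 UMIs in mesothelium, 7.68 in epithelium, 281 in glia and 361 in neurons. The same values in maternal obesity were 0.573, 6.64, 115 and 360. In some classes the proportion thus differed between the libraries as well, and fibroblasts had 8.87 in maternal obesity and 51.2 in control.

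Other genes known as Atf4 targets were mixed in direction, with a median log2 ratio of -0.14 over all cells. Of 36 measured over all cells, 5 were at least 1.5-fold lower in maternal obesity and 5 higher, where 8.70% of all measured genes were lower and 20.8% higher. Herpud1, a component of endoplasmic reticulum protein degradation, had 136 CPM in maternal obesity and 260 CPM in control, Gdf15, a secreted stress hormone, 8.48 and 17.1 CPM, and Slc7a11, the cystine importer, 2.41 and 7.19 CPM. The higher ones included Cebpd (112 and 44.9 CPM), Jdp2 (10.8 and 4.597 CPM) and Aldh1l2 (2.58 and 0.985 CPM). In glia 9 of 32 were lower and 2 higher, where 4.10% of all measured genes were lower and 19.1% higher. Herpud1 (144 and 325 CPM), the serine synthesis enzymes Psat1 (19.0 and 40.8 CPM) and Psph (13.1 and 28.9 CPM), the mitochondrial folate enzyme Mthfd2 (85.7 and 174 CPM), the translation repressor Eif4ebp1 (88.3 and 180 CPM) and the leucine transporter Slc7a5 (29.0 and 56.1 CPM) were among the lower. In smooth muscle 9 of 33 were higher and 2 lower, where 17.9% of all genes were higher and 5.48% lower, with Psat1 at 73.1 CPM in maternal obesity and 40.8 CPM in control and Slc7a3, an arginine and lysine transporter, at 6.35 and 1.05 CPM. Epithelial cells had 9 of 35 lower and 4 higher, where 11.3% of all genes were lower and 12.3% higher, with Psat1 again higher (117 and 64.2 CPM) and Ppp1r15a, which reverses eIF2 phosphorylation, lower (124 and 206 CPM).

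Upstream and parallel pathways were counted over all cells in the same way, where 8.70% of all measured genes were at least 1.5-fold lower and 20.8% higher. Of 19 genes for the eIF2 kinases and their partners, 2 were at least 1.5-fold lower over all cells and none higher, Eif2ak3, the kinase PERK of the endoplasmic reticulum (22.1 CPM in maternal obesity, 33.2 CPM in control), and Eif2ak4, the amino acid sensor GCN2 (37.6 and 57.3 CPM). None of 19 tRNA synthetases passed 1.5-fold either way. Of 20 genes of the IRE1 and ATF6 arms, the chaperone cofactor Sdf2l1 was lower (50.8 and 86.9 CPM). Among 12 other mTORC1 brakes and sensors 2 were higher and 1 lower, among 10 glutathione and Nrf2 genes 1 was lower, and among 8 mitochondrial stress genes none passed. The counts were 3 lower and none higher of 16 hypoxia genes, with Ankrd37 at 9.62 and 38.8 CPM, 2 lower and 2 higher of 11 p53 targets, with Cdkn1a at 25.03 and 53.5 CPM, and 1 higher of 7 glucocorticoid targets.

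Immediate early genes, which tissue dissociation induces, had their own directions by class. In glia 10 of 16 measured were at least 1.5-fold higher in maternal obesity and none lower, where 19.1% of all genes were higher and 4.10% lower, with a median log2 ratio of 0.84 and Egr1 at 669 CPM in maternal obesity and 200 CPM in control (3.35-fold higher, 3.14 to 3.57). In smooth muscle 8 of 17 were higher, where 17.9% of all genes were, and in fibroblasts 5 of 18, where 18.0% were. In epithelial cells 5 of 18 were lower, where 11.3% of all genes were, Btg2 (746 and 1349 CPM) and Klf4 (67.5 and 167 CPM) among them, beside the lower Atf3. Blood endothelium had 9 of 16 lower, where 11.2% of all genes were, at few UMIs per cell. Not all of the 16 ran that way there. Hspa8 had 543 CPM in maternal obesity and 335 CPM in control (1.62-fold higher, 1.29 to 2.04). Over all cells 2 of 18 were higher and 2 lower, where 20.8% and 8.70% of all genes were.

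**Figure D5:**
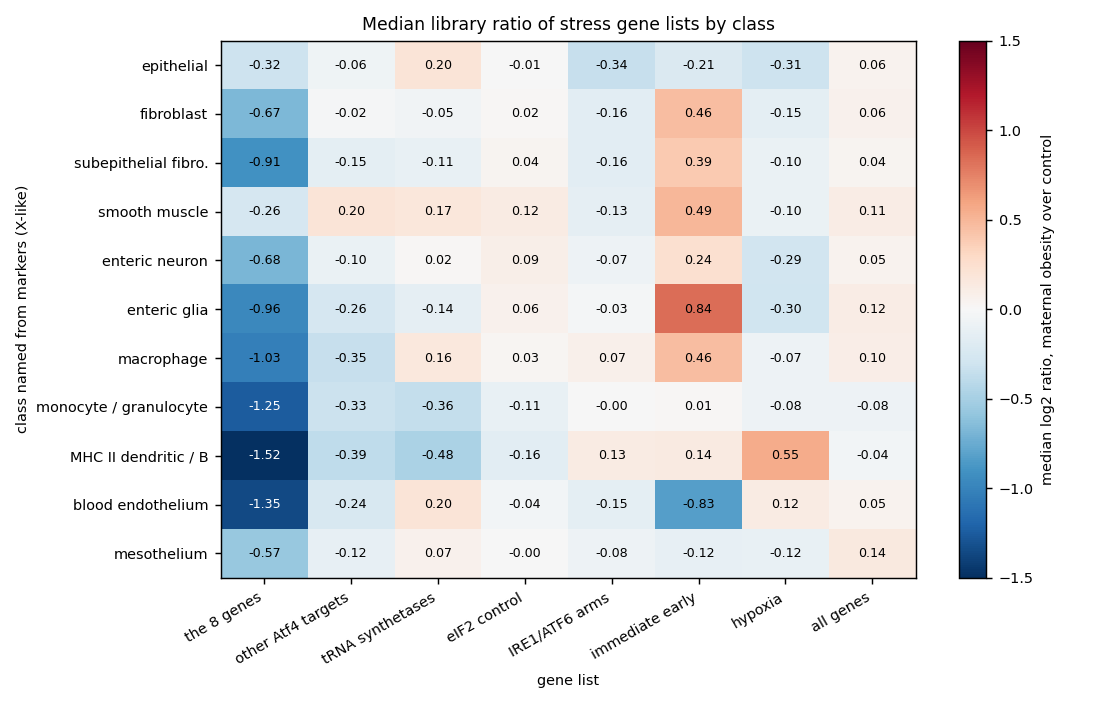
Median log2 ratio (maternal obesity / control) of the 8 genes, of 6 stress gene lists and of all measured genes (columns) in 11 marker-named classes (rows), with erythroid-like cells left out because the median of all genes there is -1.03. The first column lies below 0 in every class shown. The immediate early column is positive in classes that include glia (0.84), smooth muscle (0.49), fibroblasts (0.46) and the macrophage-like cluster.

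As a description over 20 classes and unnamed clusters in each library (40 points that share library, depth and cell makeup), the gene whose log2(CPM + 1) followed the mean of the 8 most closely was Herpud1 (Pearson r 0.86), then Cdv3 (0.84) and Atg101 (0.83), among 11574 genes compared. The 7 next were Ubald1, LOC100911515, Clk3, Pyroxd1, Cog2, Slc38a2 and Nfs1. Chac1 alone was followed best by Herpud1 (0.71) and Slc7a5 (0.62), Trib3 by Slc7a5 (0.74), and Atf3 by the immediate early genes Jun (0.85) and Klf4 (0.84). Between members, Atf4 and Ddit3 ran together (0.85) and Asns and Ddit4 in opposite directions (-0.52).

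Barcodes on both sides of the limits gave these levels. With 15 to 20% mitochondrial UMIs (90 maternal obesity and 177 control barcodes) Chac1 stood at 33.9 CPM in maternal obesity and 65.7 CPM in control, and with 20 to 25% (77 and 113 barcodes) at 45.5 and 44.5 CPM. Atf4 had 264 and 472 CPM inside and 349 and 397 CPM outside that limit. With 500 to 600 genes Chac1 had 0.939 CPM in maternal obesity and 14.0 CPM in control, and with 400 to 500 genes 0.714 and 5.85 CPM. The medians of erythroid-like cells, 579 and 595.5 genes, lie in the range of 500 to 600. Haemoglobin took 89.1% of their UMIs in maternal obesity and 83.8% in control, and they held 17 and 145 Chac1 UMIs. The levels by gene number thus also carry haemoglobin share, and no difference is read from them.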

How the data were processed

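The authors deposited raw UMI counts per gene and barcode for each library, in barcode-filtered matrices without normalisation. Alignment and counting used Cell Ranger, version 2.1.1 per the submitters' processing notes and 6.1.2 per the file headers; the sources used here give no genome build. Per the labels' protocols, tissue was digested, filtered and treated to lyse red cells before droplet capture. Counts of gene identifiers that share a symbol were summed. The 8 genes and all gene lists were chosen with earlier results of these data known.

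A barcode needed 500 or more detected genes and no more than 20% mitochondrial UMIs, and Scrublet calls (scanpy 1.11.5, expected rate 0.8% per 1000 barcodes) were removed. Counts were scaled to 10000 per cell, and 2000 variable genes (the 8 genes and stress lists left out), 30 principal components and 15 neighbours gave Leiden clusters at resolution 1, with no adjustment between libraries. Names came from marker lists by a rule set after seeing the clusters. A cluster stayed unnamed with no clear list, with low UMIs and no own marker leading, with haemoglobin genes leading at a low haemoglobin share, or with more markers of another class than of its own among its 10 leading genes. Of 186 symbols in the 11 stress lists, 7 were not analysed.

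UMIs were summed per class and library (CPM). Log2 ratios had 0.5 UMI added to both sums and needed 20 UMIs over both libraries. Levels carry exact Poisson, shares exact Clopper-Pearson and ratios exact conditional binomial intervals at 95% (scipy 1.17.1). Only the ratio intervals were tested, on simulated Poisson counts, which lack the uneven spread of UMIs over cells. All 8 genes were named in the classes described; from each list, genes at least 1.5-fold apart with an interval clear of 1 could be named.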

Additional observations from a re-analysis of the deposited data

How the results depend on the processing

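Each median of the 8 genes and each ratio was recomputed with a 10% mitochondrial limit, at least 1000 genes per barcode, called doublets kept, CPM outside haemoglobin and mitochondrial genes, equal weight for each cell or each cluster, without the cell highest for a gene, at Leiden resolution 2 and with ComBat adjustment before clustering. All 108 recomputed medians (all cells and 12 classes) stayed below 0. Each was set against the range from the median lower to the median upper bound of the single genes' counting intervals. That range is not an interval of the median itself. Of the 108, 98 lay within it. The other 10 were, for all cells (-0.64), -0.55 with 1000 genes, -0.53 outside haemoglobin and mitochondrial genes and -0.74 with equal clusters; for epithelial cells (-0.32), -0.50 with equal clusters and -0.20 with ComBat; for subepithelial fibroblasts (-0.91), -1.43 at resolution 2; for smooth muscle (-0.26), -0.47 with equal clusters; and for erythroid-like cells (-1.40), -0.65 with 1000 genes, -0.82 outside haemoglobin and mitochondrial genes and -0.88 at resolution 2. Of 773 values of single genes, 679 lay within their interval, and 31 changed sign. Of the 31, 24 belong to ratios under 1.5-fold (Sesn2, Ddit3, Asns and Trib3 in epithelium, Atf3 and Asns in fibroblasts, Asns in glia, Asns and Sesn2 in erythroid-like cells, Atf3 in mesothelium) and 7 to ratios of at least 1.5-fold. Of these 7, Asns in monocytes and granulocytes (0.69) reversed with 1000 genes (-0.29), equal cells (-0.20), resolution 2 (-0.37) and ComBat (-0.29), Atf3 in macrophage-like cells (0.65) with called doublets kept (-0.0187), Atf3 in erythroid-like cells (-1.95) with 1000 genes (0.69) and Sesn2 in mesothelium (-0.63) with equal cells (0.45); the cause was not tested. Chac1 stayed below 0 in every class and alternative in which it was measured. Equal cluster weights gave no value for classes with fewer than 2 clusters of 30 cells per library, and some classes had no cluster of that name under another filter. No paired analysis was possible because each group has 1 library and the labels give them different replicate numbers. Counts of Trib3 outside the epithelium, and of Chac1, Trib3, Asns and Sesn2 in blood endothelium, were small.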
